A study of Daphnia magna with 12 samples.

Results

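A set of 18 probes, out of 14338 on a Daphnia magna expression array, had a mean signal that was lower at each step from unexposed controls through 14.7 and 147 to 1470 µg/L of tris(2-butoxyethyl) phosphate (TBEP). The set was chosen by the measured values of these same arrays. A probe first had to be well above background, a flag that the scanner software gives to spots clearly brighter than their surroundings, on all 3 arrays of at least 1 group. That left 10040 probes. The 4 group means then had to decrease strictly in the order of the dose, the mean at 1470 µg/L had to lie at least 1.5-fold below the control mean, and all 3 arrays at 1470 µg/L had to lie below all 3 control arrays. A level is the log2 of the processed signal minus the 75th percentile of its array, so that a level of 0 is the brightness at that percentile. The size, the order and the separation of the 1470 µg/L arrays from controls were thus fixed by the choice and are given as a description, not as findings.

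The 4 groups were unexposed animals in culture medium and animals exposed to 14.7, 147 or 1470 µg/L TBEP for 21 days. Each group had 3 biological replicates, each a pool of 10 whole female animals that entered the exposure as newborns, and all were fed green algae and the YCT preparation. The labels name no vehicle control. Each pool had an array to itself with a single dye, Cy3, 4 arrays being on slide 2 (pool 3 of every group) and 8 on slide 1 (pools 1 and 2). Because whole animals were pooled, fewer cells of a type and less RNA per cell cannot be told apart, and the spread between single animals was not measured.

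Daphnia magna, the water flea, is a freshwater crustacean that reproduces without males under good conditions, so that an adult female carries broods of developing young and moults between them. RNA from whole adults therefore mixes maternal tissues such as gut, fat body, ovary and carapace with that of embryos. TBEP, an organophosphate ester, serves as a plasticiser, in floor polishes and against fire, and such esters reach surface waters. The probes carry only design identifiers, and none of the 14338 matched an entry of the RefSeq gene table of the species, so each member is named by its probe and its role is not known here.

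Most of the 18 probes were dim. Over the 12 arrays their mean processed signal lay between 6.87 and 312 intensity units with a median of 12.6 units, beside a median of 103 units over all 10040 tested probes. Of the 18, 13 fell into the dimmest quintile of tested probes (2008 probes), 3 into the next, 1 each into the third and the fourth, and 0 into the brightest. Their differences between 1470 µg/L and control ranged from -1.65 to -0.59 on the log2 scale with a median of -0.76, where the median over all tested probes was -0.002. By measured means, 7 members were lower by 2-fold or more, and 11 by less. The 7 include DM15274P3 and DM08672P1, which were not well above background on any array at 1470 µg/L. For these the data give only bounds, of at least 1.82-fold and 1.93-fold.

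The brightest member, DM10364P2, gave processed signals of 380.0, 512 and 486 units in control pools 1 to 3. It gave 756, 235 and 311 units at 14.7 µg/L, 138, 134 and 223 units at 147 µg/L and 191, 145 and 238 units at 1470 µg/L. Once scaled, the 14.7 µg/L pools lay above, below and within the control range of 0.55 to 1.04, at 1.80, -0.10 and 0.78 in pools 1 to 3. Pool 1 was the highest of all 12. The pools at 147 and at 1470 µg/L were all below every control and overlapped each other. Its mean level was 0.87 ± 0.27 in controls, 0.82 ± 0.95 at 14.7 µg/L, -0.25 ± 0.32 at 147 µg/L and -0.28 ± 0.28 at 1470 µg/L (SD, n = 3 each). By these means, almost the whole difference lay between 14.7 and 147 µg/L, a step of -1.08. The steps were -0.05 from control to 14.7 µg/L and -0.02 from 147 to 1470 µg/L. Pool 1 at 14.7 µg/L, the array least like the rest over all tested probes, raised the mean at that dose. The sizes of the first and middle steps therefore depend on that array. The difference between 1470 µg/L and control was -1.15 (SE 0.399, 95% interval -2.03 to -0.26), a 2.21-fold lower mean.

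The next brightest, DM11327P1, gave 173, 241 and 161 units in controls and 77.4, 146 and 134 units at 14.7 µg/L. It gave 72.0, 88.4 and 91.4 units at 147 µg/L and 94.2, 84.9 and 87.8 units at 1470 µg/L. All 6 arrays of the higher doses lay below the 3 controls. Once scaled, the 14.7 µg/L pools were spread from -1.49 in pool 1, within the range of the higher doses, to -0.44 in pool 3, within the control range of -0.59 to -0.04. Its mean level was -0.40 ± 0.31 in controls, -0.91 ± 0.53 at 14.7 µg/L, -1.20 ± 0.24 at 147 µg/L and -1.35 ± 0.23 at 1470 µg/L (SD, n = 3 each). The steps were -0.50, -0.29 and -0.15, each smaller than the one before. The difference between 1470 µg/L and control was -0.95 (SE 0.276, 95% interval -1.56 to -0.34), or 1.93-fold.

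The other 3 members that were well above background on all 12 arrays were DM08480P1, DM01024P3 and DM09625P1. DM08480P1 gave 32.2, 31.0 and 30.4 units at 1470 µg/L, against 46.8, 68.8 and 44.0 units in controls. Its 14.7 µg/L pools, at 29.6, 43.1 and 48.1 units, reached into the control range, and its difference at 1470 µg/L was -0.60 (SE 0.263), or -0.40 without control pool 2. DM01024P3 gave 17.7, 28.9 and 23.6 units at 1470 µg/L, against 44.4, 37.8 and 33.4 units in controls. After scaling, its highest array at 1470 µg/L lay 0.07 log2 units below its lowest control, the narrowest gap among these 5.

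DM09625P1 gave 25.7, 33.9 and 34.4 units in controls and 20.6, 27.5 and 19.6 units at 14.7 µg/L. It gave 17.6, 15.6 and 21.5 units at 147 µg/L and 15.5, 19.2 and 22.0 units at 1470 µg/L. Its scaled levels varied little within the exposed groups, with SDs of 0.11, 0.11 and 0.10 from the lowest to the highest dose beside 0.29 in controls. The difference of -0.59 (SE 0.168) had the smallest standard error of the 18. The probe was nevertheless in the dimmest quintile. Before background correction its spots averaged 60.2 units at 1470 µg/L, against 69.3 units in controls, so this difference also rests on a few brightness units.

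The remaining 13 members were not well above background on every array, and all but DM12353P1 were dimmer than the 5 above. Their processed signals ran from 1.46 to 30.5 units at 1470 µg/L, against 9.51 to 47.1 units in controls. Before background correction their spots had mean median-pixel signals of 48 to 66 units at 1470 µg/L, against 53.7 to 77.2 units in controls, and the difference per probe was between -11.2 and -3 units. Negative control spots, which carry no Daphnia sequence, averaged 38.7 units at 1470 µg/L and 38.4 units in controls on the same scale. The log2 differences of these 13 probes thus rest on spot signals that differed by a few brightness units.

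DM09034P3 had the largest log2 difference of the set, -1.65 (SE 0.530, 95% interval -2.83 to -0.48), or 3.15-fold. Its processed signals were 3.3, 4.2 and 12.1 units at 1470 µg/L, against 19.3, 18.9 and 19.1 units in controls. The control pools were almost equal, while its 14.7 µg/L pools gave 12.7, 8.5 and 22.8 units, the last above every control. Its spots before background correction gave 49.5, 51.5 and 51 units at 1470 µg/L, against 58.5, 58.5 and 53 units in controls. At 1470 µg/L its spot cleared the background flag on 1 of 3 arrays.

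DM03231P3 was the dimmest member and differed by -1.28 (SE 0.553, 95% interval -2.50 to -0.06). Without pool 1 at 1470 µg/L the difference was -0.61. It gave 1.46, 5.3 and 8.8 units at 1470 µg/L, against 13.4, 10.2 and 9.5 units in controls. Pool 1 at 1470 µg/L was at or below the 95th percentile of the negative control spots of its array, as was 1 array at 1470 µg/L for DM03128P1 and for DM15274P3. Its spot cleared the background flag on 0 of 3 arrays at 14.7 µg/L and on 1 of 3 at both higher doses.

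DM15274P3 and DM08672P1 cleared the flag on 0 of 3 arrays at 1470 µg/L, against 3 of 3 in controls. Their fold differences in processed signal can thus only be given as bounds. The bounds used the dimmest probe of each array that was still well above background, or the probe itself where it was brighter. They put DM15274P3 at least 1.82-fold lower and DM08672P1 at least 1.93-fold lower at 1470 µg/L than in controls. Both passed the filter through the controls alone and had to be bright there, so the bounds support no difference. Before background correction their spots differed by only -5 and -6.5 units. For the measured differences limma gave an adjusted p = 0.9999 each. Their measured mean levels at 1470 µg/L were -5.61 and -5.52, against -4.51 and -4.45 in controls. DM03128P1 and DM06310P1, each above the flag on 1 of 3 arrays at 1470 µg/L, had measured differences of -1.14 and -1.09. DM07999P1, DM09334P3, DM00945P2, DM10695P1 and DM09125P2 differed by -0.78, -0.75, -0.73, -0.68 and -0.68, and DM12353P1 by -0.60. Of these, only DM09334P3 and DM10695P1 had a 95% interval that did not include 0. After scaling, the highest 1470 µg/L array of DM00945P2 lay 0.00184 log2 units below its lowest control, the narrowest gap of all members.

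At the 1.5-fold minimum, the member just inside was DM15172P2 at -0.59 and the probe just outside was DM00985P2 at -0.57. DM15172P2 had 8.0, 8.3 and 8.1 units at 1470 µg/L, against 14.3, 12.2 and 14.0 units in controls. Its 14.7 µg/L pools, at 6.6, 7.1 and 23.7 units, held both the lowest and the highest values of the 12. DM00985P2 had 9.4, 7.8 and 15.1 units at 1470 µg/L, against 20.8, 16.1 and 14.5 units in controls. In all, 35 tested probes met the order and the separation but not the minimum.

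Relative to its own mean over the 12 arrays, the median member stood at 0.38, 0.61 and 0.43 in control pools 1 to 3. It stood at -0.10, -0.30 and 0.58 in the 14.7 µg/L pools and at -0.10, -0.22 and 0.11 in the 147 µg/L pools. In the 1470 µg/L pools it stood at -0.39, -0.31 and -0.25. Pool 3 at 14.7 µg/L was thus within the range of the controls, and pool 2 at 14.7 µg/L within that of the 1470 µg/L pools.

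The path from control to 1470 µg/L differed between members. The largest of the 3 steps was the first, from control to 14.7 µg/L, for 9 members, the last for 8 and the middle for 1, DM10364P2. The median step was -0.29 from control to 14.7 µg/L, -0.16 from 14.7 to 147 µg/L and -0.30 from 147 to 1470 µg/L. Single steps were as small as -0.05, -0.01 and -0.02 in that order, well inside the spread between pools. At 14.7 µg/L the SD of the 3 pools had a median of 0.57 over the members, beside 0.18 in controls, 0.38 at 147 µg/L and 0.35 at 1470 µg/L. Over all tested probes the same medians were 0.37 at 14.7 µg/L, 0.21 in controls, 0.26 at 147 µg/L and 0.28 at 1470 µg/L. The controls were the least variable of the 4 groups for 12 of the 18 members, where 42.4% of all tested probes had their least variable group in controls; the separation from controls favours such probes by construction.

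Complete separation from controls was required at 1470 µg/L, where 2.61% of all tested probes had all 3 arrays below all 3 controls and 2.67% had all 3 above. At 147 µg/L, 10 of the 18 had all 3 arrays below all 3 controls, beside 4.04% of all tested probes (4.89% above). At 14.7 µg/L it was 2 of the 18, DM03231P3 and DM12353P1, beside 2.43% (3.71% above). The doses share their control arrays and the rule fixed the order of the means, so nothing is read from these counts.

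None of the 18 passed a test across all probes. For 1470 µg/L against control limma called 0 of 10040 probes (0% at an adjusted p under 0.05), and 12 of the 18 had an unadjusted p under 0.05 in the lower direction, beside 0.558% of all tested probes (0.159% higher). For 147 µg/L limma called 0 probes (0%), with 3 of the 18 lower at an unadjusted p under 0.05 beside 1.25% lower and 0.876% higher. For 14.7 µg/L it called 2 probes (0.0199%), neither a member, with 0 of the 18 at an unadjusted p under 0.05 beside 1.61% lower and 0.926% higher. The trend over the rank of the dose called 0 probes (0%), with 11 of the 18 lower at an unadjusted p under 0.05 beside 0.886% lower and 0.448% higher. The smallest adjusted p of a member was 0.9999 for 1470 µg/L against control and 1.00 for the trend. Since the rule used these contrasts, the unadjusted counts are a property of the selection. The 3 members with the smallest unadjusted p of the trend were DM11327P1, DM10364P2 and DM09625P1, with slopes per dose step of -0.31 (SE 0.087), -0.45 (SE 0.126) and -0.19 (SE 0.053).

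The mirrored rule, with every direction turned round, found 2 probes, or 0.0199% of those tested, beside 0.179% for the 18. The balance of lower against higher depended on the setting. It was 13 against 5 with quantile normalization and with the deposited values, which matched quantile normalised signals. It was 38 against 20 without control pool 1 and 46 against 27 without 1470 µg/L pool 3. At the other end it was 67 against 9 on slide 1 alone and 62 against 8 without control pool 2. The lower count was the larger in each of these. With fewer control or 1470 µg/L arrays, as without 1 pool or on slide 1 alone, the separation and the filter are easier to pass by construction. The 2 higher probes of the main setting were DM08340P3 and DM07310P1, named because there were only these. DM08340P3 gave 10.3, 15.3 and 9.0 units at 1470 µg/L, against 6.0, 2.3 and 7.0 units in controls, and cleared the flag on 3 of 3 arrays at 1470 µg/L, against 0 of 3 in controls. DM07310P1 gave 8.2, 16.4 and 11.9 units at 1470 µg/L, against 5.8, 8.5 and 8.3 units in controls. Both belonged to the dimmest quintile, as 13 of the 18 did. The lower side outnumbered the higher at the minimum size alone, with 256 tested probes lower (2.55%) and 55 higher (0.548%) at 1470 µg/L. In the dimmest quintile those counts were 140 and 27, and its median difference was -0.09, against 0.06 in the brightest quintile. Separation alone was met by 262 probes on the lower and 268 on the higher side. Strict order alone was met by 303 on the lower and 188 on the higher side.

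The filter on dim probes bore on the set. All 18 members cleared the background flag in every control pool, and 11 of them passed the filter through the controls alone. Of the 54 member values per group, 54 were well above background in controls (100%), 35 at 14.7 µg/L (64.8%), 32 at 147 µg/L (59.3%) and 31 at 1470 µg/L (57.4%). In the dimmest quintile of tested probes the share was 97.5% in controls, 73.8% at 14.7 µg/L, 69.1% at 147 µg/L and 83.3% at 1470 µg/L. The members that passed through controls alone had to be bright there, so these shares support no difference.

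The pools of a dose did not move the members alike. At 14.7 µg/L, pool 3 lay above its group's mean for 15 of the 18 and pool 2 below it for 13, with median deviations of 0.52 and -0.39. Of all tested probes, 56.9% lay above the group mean in pool 3 and 61.8% below it in pool 2. In the dimmest quintile it was 79.6% and 74.1%, with median deviations of 0.31 and -0.25, so the counts of the members were close to those of other dim probes. Across the 12 arrays, after removing group means, the 153 pairs of members correlated with a median Pearson r of 0.26, beside 0.14 for pairs within the dimmest quintile and 0.02 for pairs of all tested probes. These pairs share the same arrays and their scaling. The software's own error estimate was 18.8% of the signal at the median member, beside 16.4% in the dimmest quintile and 10.2% over all tested probes.

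Slide 2 held pool 3 of every group, which allows a comparison that does not use the differences between doses. The level was higher on slide 2 than on slide 1 for 17 of the 18 members, beside 55.3% of all tested probes and 71.7% of the dimmest quintile, with a median difference of 0.25, beside 0.13 in the dimmest quintile and 0.02 over all tested probes. limma, with the group as a term, called 0 of the 18 and 0 of 10040 probes for this difference (0%). At an unadjusted p under 0.05, 2 of the 18 were higher on slide 2 and 0 lower, beside 1.75% higher and 1.38% lower of all tested probes. DM09034P3 had the largest slide difference, 0.97.

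Within slides the members kept the sign of their difference from control, as the separation rule requires, but not always the stepwise order. The median difference between 1470 µg/L and control was -0.77 on slide 2, with 1 array per group, and -0.91 on slide 1. On slide 2, 3 members, DM10364P2, DM06310P1 and DM09625P1, decreased at every step, beside 2.80% of all tested probes. On slide 1 it was 8 of the 18, beside 3.11%. The rule chose the members by the order of means over these same arrays, so nothing is read from these counts. For DM09034P3 the difference was -0.77 on slide 2 and -2.09 on slide 1, and for DM07999P1 -0.06 and -1.14, whereas for DM10364P2 it was -1.15 and -1.14 and for DM11327P1 -0.99 and -0.93.

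On the array the 18 spots lay in rows 47 to 189 of 192. Of the 82 columns, columns 43 to 48 held 7 members, and these columns held 7.41% of the tested probes. The span was picked after the positions were seen. Among tested probes of the dimmest quintile, the median difference at 1470 µg/L was -0.14 in these columns and -0.09 in the others. The local background beside the spots differed between 1470 µg/L and control by a median of -0.42 units for the members and -0.50 units for all tested probes. The part of position in the result was not tested.

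Most of the membership was lost with normexp, which models background and signal together. That alternative also started from the median pixel signal in place of the processed signal and added an offset of 50, so the parts of these changes cannot be told apart. With it, the median difference of the 18 between 1470 µg/L and control was -0.054, and 3 of the 18 were higher at 1470 µg/L. Only DM10364P2 (-0.94) and DM11327P1 (-0.65) still differed by the minimum and met the whole rule. An offset of that size also compresses the ratios of dim probes by construction. DM09034P3, first with processed signals, differed by -0.061 with normexp, and the 16 members that no longer met the rule differed by -0.24 to 0.052. With quantile normalization 12 of the 18 met the rule, with the deposited log2 values 12, and with each array's median in place of its 75th percentile 12.

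Leaving out single arrays changed the set further. Only DM11327P1 met the rule in all 12 such fits. It also did so in all 7 changes of scaling, background correction, filter and slide, where the change of slide was slide 1 alone. On slide 2, with 1 array per group, it did not keep the stepwise order. Its level there was -0.44 at 14.7 µg/L, above the control at -0.59. DM10364P2 stayed in 7 of the 12, and was lost without control pool 2 or 3, 14.7 µg/L pool 2, 147 µg/L pool 3 or 1470 µg/L pool 2. DM15172P2 stayed in 4 of the 12. Over all tested probes the array of 14.7 µg/L pool 1 was least like the rest (median r of 0.900 to the others, beside 0.967 or more for each of them), and without it the rule found 21 probes, 14 of them among the 18. Without 14.7 µg/L pool 3 it found 10, of which 7 were among the 18.

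The probes outside the set whose 12 values followed the members' median profile most closely were DM10771P1, DM07326P2 and DM03266P3, with Pearson r of 0.866, 0.865 and 0.834 over 12 arrays. DM10771P1 gave 26.9, 22.5 and 29.4 units at 1470 µg/L, against 48.6, 50.3 and 34.6 units in controls. It missed the rule because its mean level at 1470 µg/L, -3.117, was not below that at 147 µg/L, -3.122. DM07326P2 had a higher mean level at 147 µg/L (-3.95) than at 14.7 µg/L (-4.10), and DM03266P3 differed from control by -0.54 at 1470 µg/L, short of the minimum.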

How the data were processed

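The authors scanned 12 one-colour arrays and read out spot intensities; the file headers name version 11.5.1.1 of Agilent Feature Extraction. The deposited processed signal is, per the file headers, an intensity from which background was removed, and the deposited flags (other columns) mark spots well above background or outliers. The deposited table of log2 values has no stated scale. It matched quantile normalised, probe-centred log2 processed signals (slope and r of 1.00 on every array, column medians from -0.03 to 0.13), which settles its scale, centring and direction, and it served as an alternative.

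Here the 28 outlier spots were left out, which left 15 tested probes and 0 members without a value on some array. No probe spot was saturated. The log2 signals of a probe's spots were averaged (870 probes had 2 spots, none of them a member) and set relative to each array's 75th percentile, which lay between 172 and 261 units. A probe counted as well above background if any of its spots was. Between 8925 and 11125 probes were well above background per array, and the number of arrays limits the precision. The fit used all 12 arrays (limma 3.58.1, R 4.3.3), two-sided, with Benjamini-Hochberg adjustment over 10040 probes at 0.05, after tests on simulated data. Normexp used the median signal.

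The members, lists and tests were chosen with earlier results of these data known. Members named with values were the 5 (of up to 6 by the rule) with the largest differences that were well above background on all arrays, the next 2, those at the minimum, the 3 with the smallest p of the trend and the 3 most similar outside probes. The other members and the 2 higher probes were named after their values were seen. Gene lists could not be applied without gene names. A comparison with permuted labels was not made. Tables were made in Python 3.11.15 (pandas 2.3.3, numpy 2.4.6).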

Additional observations from a re-analysis of the deposited data

How the results depend on the processing

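The number of stepwise-lower probes, 18 with the processed signal, was 2 with normexp, 64 with no filter on dim probes, 5 when signal on all 12 arrays was required and 67 on slide 1 alone. It was 53 with no minimum size, 7 with a minimum of 1, and 46 with no separation of the arrays. The stepwise-higher count, 2 in the main setting, was 0, 15, 0, 9, 19, 1 and 4 in the same order, and 5 with quantile normalization and with the deposited values. Over fits that each left out 1 array the lower count ranged from 10 to 62 and the higher from 0 to 27. The lower count was 38, 62 and 42 without control pools 1, 2 and 3, 10 without 14.7 µg/L pool 3, and 36, 40 and 46 without 1470 µg/L pools 1, 2 and 3. The higher count was 20, 8 and 4 without the control pools in that order, 0, 6 and 4 without the 147 µg/L pools and 8, 13 and 27 without the 1470 µg/L pools. Where a control or 1470 µg/L array is left out, and on slide 1 alone, the separation is easier to meet by construction. The filter on dim probes is also easier to pass where a group has fewer arrays. The median difference of the members was -0.054 with normexp and ranged from -0.92 to -0.76 when single arrays were left out. DM15172P2, DM00985P2 and DM03266P3 had the opposite sign with normexp, 0.049, 0.000507 and 0.062, and the cause was not tested. limma called 0 probes at 147 and 1470 µg/L, in the trend and between slides in every setting with adjusted p, and no member in any. At an unadjusted p under 0.05 the counts were 72 at 1470 µg/L, 213 at 147 µg/L, 255 at 14.7 µg/L and 134 in the trend. The 2 probes called at 14.7 µg/L, none a member, became 1 with no filter and with the slide as a block, 0 with signal on all 12 arrays and on slide 1 alone, and 0 to 5 without single arrays. The main fit did not pair samples by replicate number. Deviations from group means correlated between -0.37 and 0.59 within a number, with medians of -0.04, 0.25 and 0.06 for numbers 1 to 3. Such correlations cannot settle whether the numbers pair the samples, and pool 3 of every group shared slide 2. With the replicate block the counts were 0 at 1470 µg/L, 0 at 147 µg/L, 3 at 14.7 µg/L and 0 in the trend. For the 13 members not well above background on every array, signal close to background limits every value.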
